A study of Mus musculus with 8 samples.

Results

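Store-operated calcium entry is the route by which a T cell sustains the calcium signal that follows engagement of its antigen receptor. The 9 genes described here encode its sensors, channels and release receptors together with calmodulin, the calcium-binding protein that reads the signal out. They were taken by name from the 55487 Ensembl genes of the deposited files as Stim1, Stim2, Orai1, Orai2, Orai3, Calm2, Calm3, Itpr1 and Itpr2, and all 9 were found. Phospholipase C gamma makes inositol trisphosphate (IP3), IP3 receptors release calcium from the endoplasmic reticulum, and the STIM proteins sense the fall in the store and open ORAI channels in the plasma membrane. Calcium-loaded calmodulin then activates calcineurin, the phosphatase that tacrolimus (FK506) inhibits in complex with an FKBP immunophilin. The genes measured here therefore act at and upstream of the drug's target.

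The study compared lymphocytes sorted as CD8+ from B16F10 tumors of 4 C57BL/6 mice given tacrolimus and 4 given vehicle, with 1 library per mouse. B16F10 is a pigmented mouse melanoma line, and all 8 mice carried it as a subcutaneous tumor. Dosing was intraperitoneal every 5 days, at 3 mg/kg for tacrolimus, and began when tumors measured about 50 mm3, 7 to 9 days after the cells were injected. Tumors were harvested 6 days after dosing began. Age and sex of the mice are not given in the sources used here.

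Melanoma marker transcripts far exceeded T cell marker transcripts in all 8 libraries, although the sort was for CD8+ cells, and the T cell markers varied widely. Over 10 T cell markers (Cd3 chains, Cd8 chains and others) the summed level was 54.7 to 433 FPKM with tacrolimus and 438 to 1690 FPKM with vehicle. FPKM, the unit throughout, counts fragments relative to transcript length and to the size of the library. Over 10 melanoma markers the sums were 22540 to 27646 and 18946 to 34117 FPKM. Macrophage markers summed to 241 to 570 and 450 to 1821 FPKM over 10 genes, and neutrophil markers to 13.9 to 46.1 and 32.1 to 351 FPKM over 6 genes. Dendritic cell markers summed to 19.9 to 29.1 and 24.6 to 121 FPKM, natural killer cell markers to 16.4 to 19.6 and 9.94 to 41.2, and B cell markers to 0.82 to 3.31 and 2.31 to 6.13, each over 6 genes. Fibroblast and endothelial markers summed to 37.3 to 62.8 and 47.2 to 78.4 FPKM over 10 genes. No marker on these lists was at 0 in all 8 libraries. Vehicle replicate 1 had the highest sum of every list except those of B cells and melanoma cells, and it had the lowest melanoma sum. Tacrolimus replicate 2 had the lowest sum of T cell markers and the lowest sum of macrophage markers. In such mixed RNA, fewer cells of a type and less RNA per cell cannot be told apart. The part of cell composition in the differences below was not tested.

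Calmodulin was by far the most abundant of the products. Calm2 averaged 579 ± 89.4 FPKM over the 8 libraries (SD) and ranked 161 to 242 among the genes of each library. Calm3 followed at 48.3 ± 9.94 FPKM, and then Orai3 at 19.7 ± 5.72, and these 3 did not overlap in range. Below them the ranges of neighbours overlapped. Orai1 was at 14.6 ± 4.70 FPKM, Stim2 at 9.73 ± 2.21, Stim1 at 8.60 ± 2.51, Itpr1 at 5.88 ± 0.61, Orai2 at 4.91 ± 1.31 and Itpr2 at 3.87 ± 2.20. Orai3 exceeded Orai1 in 7 of 8 libraries, vehicle replicate 1 being the other, and Stim2 exceeded Stim1 in 6 of 8. By its length-scaled level the ORAI gene most abundant in these mixed libraries was thus usually Orai3, not Orai1, the pore subunit that T cells depend on for store-operated entry. All 9 genes were above 1 FPKM in every library, so none entered the comparison through 1 group alone.

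The comparison asked which of these genes differed between tacrolimus and vehicle mice. None of the 9 passed an adjusted p of 0.05 in limma, where 0% of the 13032 genes tested passed, and the smallest adjusted p among them was 0.179 for Orai1. An exact permutation test over all genes could pass none here, since with its smallest p of 0.0286, reached by 1434 genes, the smallest adjusted p was 0.26. All 9 had a lower mean with tacrolimus in the deposited values, as did 75.7% of all genes tested. Their median difference was -0.45 on the log2(FPKM + 1) scale, against -0.19 for all genes. At an unadjusted p under 0.05, 3 of the 9 were lower (Orai1, Itpr2 and Stim1) and 0 higher, where 15.8% of all genes tested were lower and 1.6% higher. In 4 of the 9 every tacrolimus library lay below every vehicle library (Orai1, Orai2, Itpr2 and Calm3), against 10.2% of all genes, and in 0 the reverse, against 0.767%. Without vehicle replicate 1 it was 5 of the 9, against 19.1% of all genes. After median-of-ratios scaling, which centres the median gene at 0.00, this held for 2, Orai1 and Itpr2, against 3.67% of all genes, and the reverse for 0, against 2.96%. Upper-quartile scaling left the same 2, against 3.44% lower and 3.25% higher of all genes. Over all genes, the split at an unadjusted p under 0.05 was 2056 lower and 208 higher as deposited. It was 801 lower (6.15%) and 675 higher (5.18%) with median-of-ratios scaling, and 778 lower (5.97%) and 723 higher (5.55%) with upper-quartile scaling. The 9 genes were not counted at this threshold with either scaling. With median-of-ratios scaling the median of the 9 was -0.24, and Calm2 and Itpr1 changed sign.

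**Figure D1:**
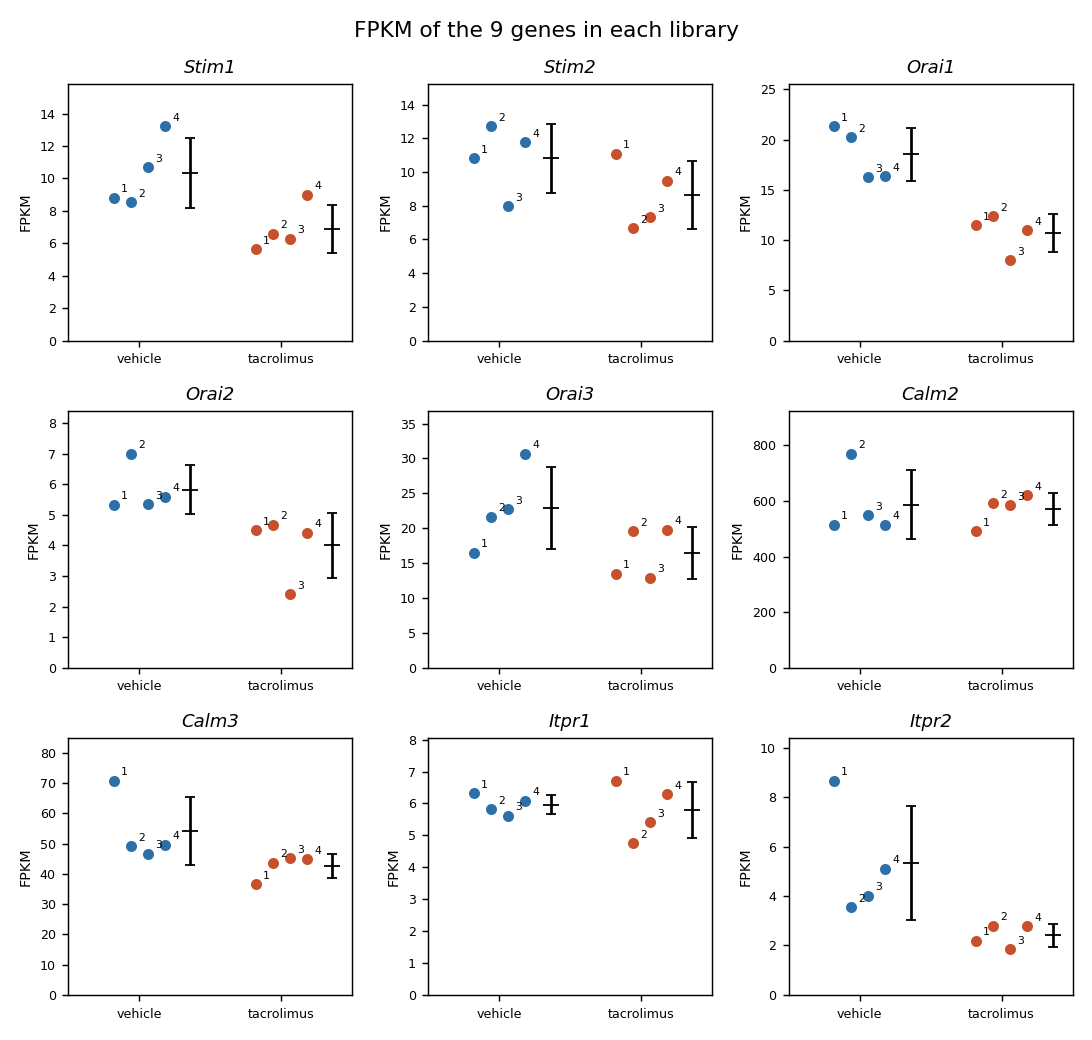
Each panel plots the FPKM of 1 gene in the 4 vehicle (blue) and 4 tacrolimus (red) libraries, numbered by replicate, with the mean ± SD in black and axes that start at 0. Orai1, Orai2, Itpr2 and Calm3 show no overlap between the groups, with Orai1 at 7.97 to 12.4 FPKM with tacrolimus and 16.3 to 21.3 with vehicle.

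The ORAI genes encode the pore-forming subunits of the calcium release-activated channel. Orai1 was at 11.5, 12.4, 7.97 and 10.97 FPKM in tacrolimus replicates 1 to 4 and at 21.3, 20.2, 16.3 and 16.4 FPKM in vehicle replicates 1 to 4. Every tacrolimus library was below every vehicle library, with a gap from 12.4 to 16.3 FPKM. The means were 10.7 ± 1.91 and 18.5 ± 2.62 FPKM (SD, n = 4 each), 1.73-fold higher with vehicle. The log2 difference was -0.75 (SE 0.18, 95% interval -1.14 to -0.35, limma adjusted p = 0.179), and 7.11% of all genes tested lay further down. Orai1 lies on GRCm38 chromosome 5 from 123015074 to 123030456 (ENSMUSG00000049686). The antisense gene Gm2479 overlaps its exons, and whether the counting used strand is not given in the sources used here. Gm2479 was at 7.40 FPKM in tacrolimus replicate 1, at 2.83 in vehicle replicate 1, at 0.10 in vehicle replicate 4 and listed at 0 in the other libraries.

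Orai1 can be set beside the cell markers library by library. Vehicle replicate 1 had both the highest T cell marker sum and the highest Orai1 level of all 8 libraries. Tacrolimus replicate 2 had the lowest T cell marker sum, 54.7 FPKM, and as deposited the highest Orai1 level of its group. After median-of-ratios scaling tacrolimus replicate 1 was the highest of that group, at 13.1 FPKM against 12.9 in tacrolimus replicate 2. Tacrolimus replicate 1 and vehicle replicate 2 had nearly the same T cell marker sum, 433 and 438 FPKM, and their Orai1 levels were 11.5 and 20.2 FPKM. After median-of-ratios scaling, whose factors for this pair were 0.878 and 1.2, the levels were 13.1 and 16.9 FPKM. The pair also differed in macrophage marker sum, 415 and 662 FPKM, and in melanoma marker sum, 22540 and 29922 FPKM. These pairs were picked after their values were seen. Vehicle replicate 3 had a macrophage marker sum of 450 FPKM, below the 570 FPKM of tacrolimus replicate 3, and their Orai1 levels were 16.3 and 7.97 FPKM. After median-of-ratios scaling these levels were 15.7 and 9.25 FPKM. This pair differed in T cell marker sum, 625 and 223 FPKM, and in melanoma marker sum, 28196 and 25810 FPKM. It too was picked after its values were seen. Without vehicle replicate 1, whose markers stood apart, the Orai1 difference was -0.68 (limma adjusted p = 0.201).

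**Figure D2:**
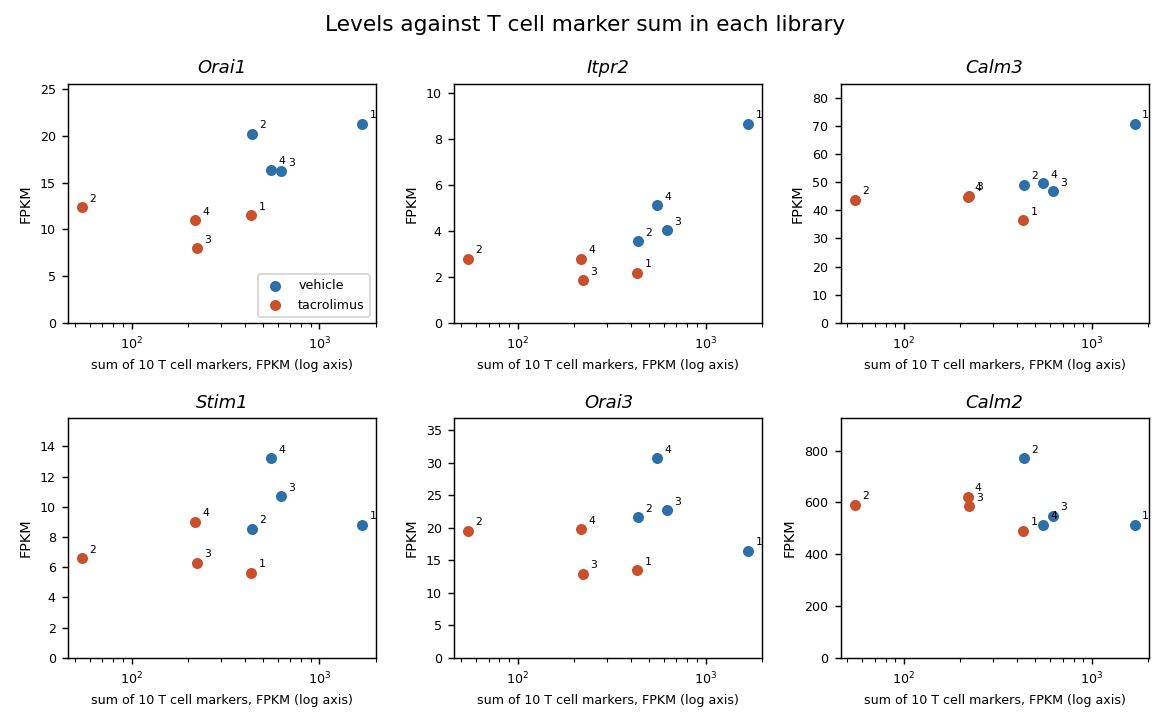
Each panel plots the FPKM of 1 gene against the summed FPKM of 10 T cell markers (log axis) in the same library, blue for vehicle and red for tacrolimus, numbered by replicate. Tacrolimus replicate 1 and vehicle replicate 2 sit at nearly the same marker sum (433 and 438 FPKM) with Orai1 at 11.5 and 20.2 FPKM and Calm2 at 490 and 771 FPKM. After median-of-ratios scaling Orai1 was at 13.1 and 16.9 FPKM in this pair and Calm2 at 558 and 642 FPKM. The pair was picked after its values were seen.

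Orai2, a family member that can join Orai1 in mixed channels and lower their current, was at 4.50, 4.67, 2.41 and 4.41 FPKM with tacrolimus and 5.33, 7.00, 5.35 and 5.59 FPKM with vehicle. The groups did not overlap, though the gap between 4.67 and 5.33 FPKM was narrow, and they overlapped after median-of-ratios scaling. The log2 difference was -0.47 (SE 0.21, limma adjusted p = 0.288), or -0.29 after median-of-ratios scaling and -0.30 without tacrolimus replicate 3. Orai3, which forms store-operated and arachidonate-regulated channels, was at 13.5, 19.5, 12.9 and 19.8 FPKM with tacrolimus and 16.5, 21.7, 22.7 and 30.7 FPKM with vehicle. Tacrolimus replicates 2 and 4 lay above vehicle replicate 1, so the groups overlapped (difference -0.45, SE 0.22, limma adjusted p = 0.313, or -0.24 after median-of-ratios scaling). Summed over the 3 genes, ORAI transcripts were at 23.3 to 36.6 FPKM with tacrolimus and 43.1 to 52.6 FPKM with vehicle, without overlap. The share of Orai1 in that sum was 34.6% ± 3.27 with tacrolimus and 39.7% ± 7.77 with vehicle and ran up to 49.5% in vehicle replicate 1. Orai2 (ENSMUSG00000039747) lies on chromosome 5 from 136147459 to 136170713 and Orai3 (ENSMUSG00000043964) on chromosome 7 from 127769815 to 127775150.

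The upstream sequences of the genes whose groups did not overlap are given because these genes are the ones whose libraries separated, with Orai3 beside them as the ORAI gene whose groups did overlap. Each is the 250 bases before the RefSeq start site on GRCm38.p6, 5′ to 3′ on the gene's own strand, and 7 of the 9 genes had an entry. Capitals mark GGAAA, the core bound by NFAT and by ETS factors, and GGGCGG, the GC box bound by Sp and KLF factors, on either strand.
Orai1, chr5:123014824-123015073, plus strand: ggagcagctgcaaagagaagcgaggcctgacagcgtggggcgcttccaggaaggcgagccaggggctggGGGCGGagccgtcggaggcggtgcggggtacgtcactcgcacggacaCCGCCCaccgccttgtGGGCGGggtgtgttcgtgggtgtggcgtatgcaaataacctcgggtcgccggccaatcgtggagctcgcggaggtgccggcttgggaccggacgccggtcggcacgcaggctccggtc
Orai2, chr5:136170657-136170906, minus strand: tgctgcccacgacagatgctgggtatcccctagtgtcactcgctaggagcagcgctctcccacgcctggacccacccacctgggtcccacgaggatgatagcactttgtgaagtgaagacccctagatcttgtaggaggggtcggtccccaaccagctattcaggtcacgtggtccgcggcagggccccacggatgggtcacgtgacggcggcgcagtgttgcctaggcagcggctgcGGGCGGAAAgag
Orai3, chr7:127769565-127769814, plus strand: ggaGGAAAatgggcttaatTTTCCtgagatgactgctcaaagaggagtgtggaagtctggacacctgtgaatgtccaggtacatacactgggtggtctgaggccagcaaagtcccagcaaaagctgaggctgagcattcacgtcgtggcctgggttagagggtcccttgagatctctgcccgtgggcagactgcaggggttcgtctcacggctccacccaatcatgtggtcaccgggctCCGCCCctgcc
Itpr2, chr6:146502224-146502473, minus strand: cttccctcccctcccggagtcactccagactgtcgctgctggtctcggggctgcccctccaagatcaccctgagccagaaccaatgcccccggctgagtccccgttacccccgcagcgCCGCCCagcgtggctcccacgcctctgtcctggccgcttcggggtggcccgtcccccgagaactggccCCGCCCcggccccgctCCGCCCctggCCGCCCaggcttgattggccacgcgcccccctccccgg
Calm3, chr7:16924033-16924282, minus strand: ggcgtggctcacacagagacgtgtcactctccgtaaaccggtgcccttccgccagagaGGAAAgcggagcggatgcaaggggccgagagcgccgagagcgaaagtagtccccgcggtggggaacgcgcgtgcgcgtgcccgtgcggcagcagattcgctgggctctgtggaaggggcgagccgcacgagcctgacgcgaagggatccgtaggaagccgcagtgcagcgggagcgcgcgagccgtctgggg

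GGAAA did not occur in the windows of Orai1 and Itpr2, the pair that stayed apart under every scaling, nor in those of Stim1 and Stim2. It occurred 1 time for Orai2, where it overlaps a GC box next to the start, 1 time for Calm3 and 2 times for Orai3. Of 32851 mouse promoter windows of the same length, 55.6% held GGAAA on either strand and 32.7% held GGGCGG. The GC box occurred 8 times for Stim1, 4 times for Itpr2, 3 times each for Orai1 and Stim2, 1 time each for Orai2 and Orai3 and 0 times for Calm3. The AP-1 site TGANTCA, in 6.75% of all windows, and the cAMP response element TGACGTCA, in 1.55%, occurred in none of the 7. CG dinucleotides numbered 7 for Orai3, 17 for Orai2, 22 for Itpr2, 30 each for Orai1 and Stim2, 31 for Stim1 and 33 for Calm3. The median over all promoter windows was 6. These are matches of letters within 250 bases and say nothing of binding.

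STIM proteins span the endoplasmic reticulum membrane and sense its calcium content. Stim1, the main sensor for large store depletion, was at 5.63, 6.59, 6.28 and 9.00 FPKM with tacrolimus and 8.82, 8.55, 10.7 and 13.2 FPKM with vehicle. Of the tacrolimus libraries, replicate 4 reached into the vehicle range and the other 3 lay below it. The log2 difference was -0.52 (SE 0.20, 95% interval -0.96 to -0.08, limma adjusted p = 0.236), or -0.33 after median-of-ratios scaling (SE 0.17, limma adjusted p = 0.489). Stim2, which responds to smaller falls of store calcium, was at 11.1, 6.68, 7.33 and 9.48 FPKM with tacrolimus and 10.8, 12.7, 7.98 and 11.8 FPKM with vehicle. Its groups overlapped widely (difference -0.30, SE 0.21, 95% interval -0.76 to 0.16, limma adjusted p = 0.454). It was -0.10 after median-of-ratios scaling and -0.20 without tacrolimus replicate 2. The summed STIM level was 15.5 ± 2.51 FPKM with tacrolimus and 21.1 ± 2.77 FPKM with vehicle. Stim1 (ENSMUSG00000030987) lies on chromosome 7 from 102267806 to 102437319 and Stim2 (ENSMUSG00000039156) on chromosome 5 from 53998499 to 54121057.

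IP3 receptors release the stored calcium, and the 2 members gave different values. Itpr2 was at 2.19, 2.80, 1.85 and 2.79 FPKM with tacrolimus and 8.67, 3.55, 4.02 and 5.11 FPKM with vehicle, without overlap. Vehicle replicate 1 was far above the other vehicle libraries, and without it the vehicle mean was 4.23 FPKM in place of 5.34. The log2 difference was -0.84 (SE 0.26, 95% interval -1.42 to -0.27, limma adjusted p = 0.195), or -0.62 without that library (adjusted p = 0.201). After median-of-ratios scaling the highest tacrolimus library, at 2.92 FPKM, and the lowest vehicle library, at 2.96 FPKM, nearly met. Itpr1 was at 6.71, 4.76, 5.42 and 6.29 FPKM with tacrolimus and 6.32, 5.82, 5.62 and 6.09 FPKM with vehicle. The vehicle range fell inside the tacrolimus range, and the log2 difference of -0.04 (SE 0.17, 95% interval -0.41 to 0.33, limma adjusted p = 0.906) was 0.15 after median-of-ratios scaling. The antisense gene Gm44040 overlaps exons of Itpr1 and was at 0 to 1.80 FPKM. Gm44101, also on the opposite strand, overlaps exons of Itpr1 too and was at 0.09 to 0.57 FPKM. Itpr3, the family member not among the 9, was at 1.22 ± 0.25 and 1.81 ± 0.47 FPKM (difference -0.33, limma adjusted p = 0.429). Both lie on chromosome 6, Itpr1 (ENSMUSG00000030102) from 108213096 to 108551109 and Itpr2 (ENSMUSG00000030287) from 146108299 to 146502223.

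Ratios of paralogs within a library do not depend on how libraries are scaled to each other, and 5 were compared. The ratio of Itpr1 to Itpr2 was 3.06, 1.70, 2.93 and 2.25 with tacrolimus and 0.73, 1.64, 1.40 and 1.19 with vehicle. All tacrolimus libraries lay above all vehicle libraries, though tacrolimus replicate 2 and vehicle replicate 2 were nearly level. On the log2 scale with 0.1 FPKM added to each gene the difference was 1.0 (SE 0.31, n = 4 each, exact two-sided permutation p = 0.0286, the smallest that 4 against 4 allows, adjusted over the 5 ratios p = 0.143). It was 0.77 without vehicle replicate 1 (exact permutation adjusted p = 0.286). Itpr1 accounted for 61.5% ± 6.29 of the summed IP3 receptor FPKM with tacrolimus and 46.8% ± 7.77 with vehicle. The other 4 ratios overlapped between the groups. Their log2 differences and adjusted exact permutation p (n = 4 each) were -0.23 and 0.357 for Orai1 to Orai2, and -0.33 and 0.429 for Orai1 to Orai3. They were 0.31 and 0.429 for Calm2 to Calm3, and -0.25 and 0.486 for Stim1 to Stim2. Single libraries moved all 4. Without vehicle replicate 1 the differences were -0.12 for Orai1 to Orai2, -0.11 for Orai1 to Orai3 and 0.11 for Calm2 to Calm3, and without vehicle replicate 2 the last was 0.48. Orai1 to Orai3 was -0.54 without vehicle replicate 4. Stim1 to Stim2 was -0.04 without tacrolimus replicate 1, -0.09 without vehicle replicate 3 and -0.42 without vehicle replicate 2.

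**Figure D3:**
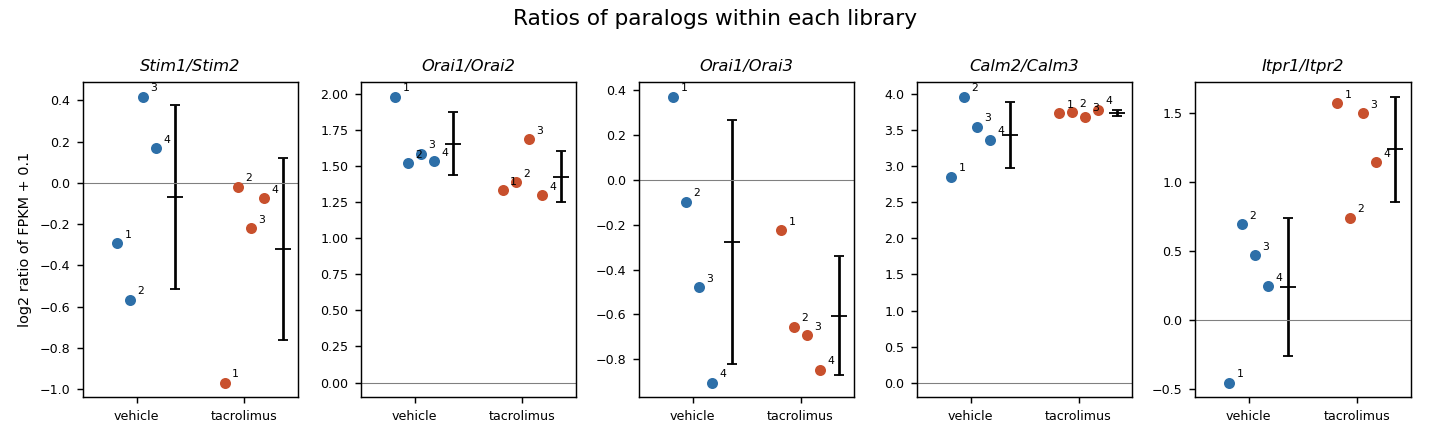
Each panel plots the log2 ratio of 2 paralogs, (FPKM + 0.1) over (FPKM + 0.1), in the 4 vehicle (blue) and 4 tacrolimus (red) libraries, numbered by replicate, with the mean ± SD in black and a separate axis per panel. Itpr1/Itpr2 is the only panel of the 5 in which the groups do not overlap, with the lowest tacrolimus library at 0.74 and the highest vehicle library at 0.70.

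Calm2 and Calm3 encode the same calmodulin protein. Calm2, the more abundant of the pair, was at 490, 592, 584 and 621 FPKM with tacrolimus and 514, 771, 548 and 514 FPKM with vehicle. The groups overlapped almost entirely, and only vehicle replicate 2 stood above the rest. The log2 difference was -0.02 (SE 0.16, 95% interval -0.38 to 0.34, limma adjusted p = 0.955) and 0.20 after median-of-ratios scaling. Calm3 was at 36.6, 43.7, 45.2 and 44.9 FPKM with tacrolimus and 70.8, 49.1, 46.7 and 49.7 FPKM with vehicle. The groups did not overlap as deposited, by a gap of 45.2 to 46.7 FPKM, and overlapped after median-of-ratios scaling. Vehicle replicate 1 carried much of the difference, which was -0.32 (SE 0.16, limma adjusted p = 0.319) with it and -0.19 without it (adjusted p = 0.406). It was -0.11 after median-of-ratios scaling. The coding sequences of Calm2 and Calm3 are 450 bases each and identical at 82.7% of positions, with no identical run over 17 bases when aligned without gaps. How shared fragments were split between calmodulin genes and their pseudogenes is not given in the sources used here, so the single levels are uncertain. Calm2 (ENSMUSG00000036438) lies on chromosome 17 from 87433412 to 87446935 and Calm3 (ENSMUSG00000019370) on chromosome 7 from 16915379 to 16924114.

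**Figure D4:**
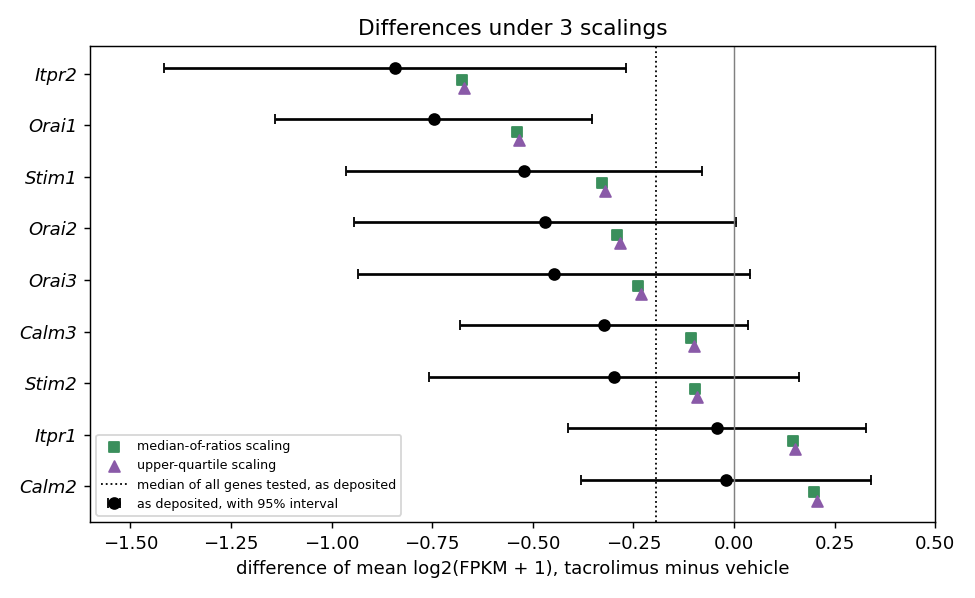
Differences of mean log2(FPKM + 1), tacrolimus minus vehicle, for the 9 genes, as deposited (black, with the 95% interval from limma) and after median-of-ratios (squares) or upper-quartile scaling (triangles). Itpr2 at -0.84 and Orai1 at -0.75 lie furthest below the median of all genes (dotted, -0.19), and Itpr1 and Calm2 turn positive under both other scalings.

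Pairs of the 9 genes differed in how closely they followed each other across the 8 libraries. Pearson correlations of log2(FPKM + 1), given as a description over libraries that share treatment and composition, were 0.89 for Orai1 with Orai2, 0.89 for Calm3 with Itpr2, 0.88 for Orai3 with Stim1 and 0.85 for Orai1 with Itpr2. Itpr1 went with Stim2, at 0.76, and Calm2 with no other member above 0.24. Of 3 genes most like each member, those nearest Orai1 were Tjap1 (0.99), Slc9a3r1 (0.99) and Fam32a (0.99), and those nearest Itpr2 were Pnrc1 (0.99), Ctso (0.99) and Arhgef1 (0.99). Zfp3 (0.98), Tmem168 (0.98) and Farp2 (0.98) were nearest Stim1, and Tmem185b, Swap70 and Faap100 (0.98 each) nearest Orai3. Sf1, Pidd1 and Hdac10 (0.98 each) were nearest Orai2. Calm2 was nearest to Commd3 (0.99), Xlr3c (0.97) and Psmc5 (0.97), and Calm3 to Rnf138 (0.99), Rnh1 (0.98) and Clec12a (0.98). Stim2 was nearest to Slc1a4, Dnajc27 and Zfp142 (0.95, 0.95 and 0.95) and Itpr1 to Nup153, Lrba and Ptch1 (0.96, 0.95 and 0.93). Each is the highest of the correlations with all protein-coding genes tested, over only 8 libraries.

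Other genes of the pathway were followed in 10 lists. Of 113 listed genes found, 86 passed the minimum level, and 0 passed an adjusted p of 0.05 in limma. At an unadjusted p under 0.05, 29 of the 86 were lower with tacrolimus (33.7%, against 15.8% of all genes tested). In the other direction 0 were higher, against 1.6%. With median-of-ratios scaling 6.15% of all genes were lower, and the lists were not counted at that scaling. The minimum level could be met by the vehicle group alone. Kcna3 and Atp2a3, both counted as lower, reached 1 FPKM in every vehicle library but with tacrolimus only in replicate 1. By list the share lower ran from 18.8% of calmodulin-dependent enzymes to 57.1% of membrane potential channels, apart from the 2 other family members, of which 0 passed. In 22 of the 86 the groups did not overlap with tacrolimus lower (25.6%, against 10.2%). Their median difference was -0.30, against -0.19 for all genes, and -0.09 after median-of-ratios scaling.

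Upstream of the release receptors, 3 of 8 genes of IP3 production were lower at an unadjusted p under 0.05 (37.5%) and 0 higher. The shares of all genes tested were 15.8% lower and 1.6% higher. Plcg1, the phospholipase activated by the T cell receptor, was at 8.53 ± 1.0 FPKM in tacrolimus mice against 13.7 ± 2.22 in vehicle mice. The adaptor Lat was at 8.17 ± 3.44 and 31.2 ± 29.6 FPKM. The first vehicle library held 75.2 FPKM of Lat, and without it the vehicle mean was 16.5 FPKM. Plcg2, the isoform of B and myeloid cells, did not pass (limma unadjusted p = 0.0623), at 2.20 ± 0.69 and 3.45 ± 0.81 FPKM. Of the IP3 metabolism and receptor regulators, 3 of 8 were lower (37.5%) and 0 higher. Lrmp, an endoplasmic reticulum protein that binds IP3 receptors, was at 1.86 ± 1.16 and 6.34 ± 4.14 FPKM (vehicle mean 4.29 without replicate 1). Erp44, a redox chaperone that binds Itpr1, was at 28.3 ± 2.09 and 38.3 ± 5.32 FPKM, and Itprip at 0.96 ± 0.60 and 2.06 ± 0.23 FPKM.

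Of the STIM and ORAI regulators, 4 of 13 were lower at an unadjusted p under 0.05 (30.8%) and 0 higher. The shares of all genes tested were 15.8% lower and 1.6% higher. Saraf, which switches store-operated entry off, was at 91.4 ± 7.62 and 126 ± 21.6 FPKM, without overlap. Esyt1, a tether between the endoplasmic reticulum and the plasma membrane, was at 5.88 ± 1.74 and 16.2 ± 8.62 FPKM (difference -1.25, SE 0.31, limma adjusted p = 0.183; vehicle mean 11.9 without replicate 1). Unc93b1, better known as the carrier of endosomal Toll-like receptors, was at 9.66 ± 0.63 and 23.3 ± 10.2 FPKM (vehicle mean 19.2 without replicate 1). Among membrane potential channels 4 of 7 were lower (57.1%) and 0 higher. The 4 include Kcna3, which met the minimum level through the vehicle group alone. The potassium channels that keep up the driving force for calcium were Kcnn4, at 10.9 ± 2.73 and 19.1 ± 5.27 FPKM, and Kcna3, at 0.43 ± 0.50 and 3.16 ± 2.90 FPKM (vehicle mean 1.74 and tacrolimus mean 0.19 without replicate 1 of each, listed at 0 in tacrolimus replicate 2). Trpv2 was at 16.9 ± 3.64 and 26.1 ± 3.90 FPKM, and the ATP-gated channel P2rx4 at 28.3 ± 6.19 and 40.0 ± 4.72 FPKM.

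Calcium pumps and exchangers had 3 of 6 genes lower at an unadjusted p under 0.05 (50.0%) and 0 higher. The shares of all genes tested were 15.8% lower and 1.6% higher. The 3 include Atp2a3, which met the minimum level through the vehicle group alone. The store pump Atp2a2 was at 34.0 ± 9.23 and 50.8 ± 10.8 FPKM, and Atp2a3, its form in blood cells, at 1.01 ± 1.01 and 3.87 ± 3.18 FPKM (vehicle mean 2.29 without replicate 1, tacrolimus mean 0.53 without replicate 1). Slc8b1, the sodium-calcium exchanger of mitochondria, was at 1.95 ± 0.20 and 3.49 ± 0.78 FPKM. For mitochondrial uptake the count was 3 of 9 lower (33.3%) and 0 higher. Mcub, the subunit that dampens the uniporter, was at 2.15 ± 0.50 and 7.28 ± 4.53 FPKM (vehicle mean 5.24 without replicate 1), and the gatekeeper Micu2 at 22.0 ± 1.60 and 28.5 ± 2.97 FPKM. Endoplasmic reticulum buffers had 4 of 11 lower (36.4%) and 0 higher. Calr was at 366 ± 62.2 and 533 ± 84.6 FPKM, Hspa5 at 305 ± 48.3 and 437 ± 40.9 FPKM, and Sdf4 at 60.0 ± 1.43 and 95.5 ± 25.2 FPKM (vehicle mean of Sdf4 83.6 without replicate 1).

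Downstream of calmodulin, 3 of 16 calmodulin-dependent enzymes were lower at an unadjusted p under 0.05 (18.8%, close to the 15.8% of all genes) and 0 higher, and the list's median of -0.11 was 0.05 after median-of-ratios scaling. The 3 were Ppp3r1, the regulatory subunit of calcineurin, at 38.0 ± 4.70 and 48.2 ± 1.37 FPKM, the catalytic subunit Ppp3cc at 10.1 ± 0.90 and 16.2 ± 5.79 FPKM, and the kinase subunit Camk2b at 3.13 ± 0.91 and 7.68 ± 4.88 FPKM. Without vehicle replicate 1 the vehicle means of Ppp3cc and Camk2b were 13.4 and 5.29 FPKM. The subunits of calcineurin, the drug's target, did not all have lower means. The catalytic subunit Ppp3cb, named after its values were seen, was at 21.2 ± 2.83 and 17.4 ± 3.56 FPKM (difference 0.29), and Ppp3ca, likewise, at 15.1 ± 2.31 and 16.9 ± 7.75 FPKM (difference -0.05). The kinase Camk4 did not pass (limma unadjusted p = 0.0872), at 2.23 ± 1.69 and 6.27 ± 6.03 FPKM (vehicle mean 3.29 without replicate 1). Of 6 calmodulin regulators, 2 were lower (33.3%) and 0 higher, where 1.6% of all genes tested were higher. Iqgap1, a scaffold that binds calmodulin, was at 28.2 ± 4.37 and 50.4 ± 8.39 FPKM (difference -0.81, SE 0.16, limma adjusted p = 0.179), without overlap. Nrgn, which sequesters calmodulin, was at 1.73 ± 1.46 and 5.71 ± 2.69 FPKM (vehicle mean 4.40 and tacrolimus mean 1.09 without replicate 1 of each). Camta1, a calmodulin-binding transcription activator, had a higher mean with tacrolimus, 20.03 ± 4.09 and 16.8 ± 2.95 FPKM (difference 0.23, limma unadjusted p = 0.256). Of the genes named in these lists, Lat, Lrmp, Unc93b1, Kcna3, Mcub, Sdf4, Camk2b, Camk4, Iqgap1 and Nrgn were lowest in tacrolimus replicate 2 and highest in vehicle replicate 1. The T cell marker sum and the macrophage marker sum had the same lowest and highest libraries. The part of T cell or macrophage RNA in the differences of these genes was not tested.

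**Figure D5:**
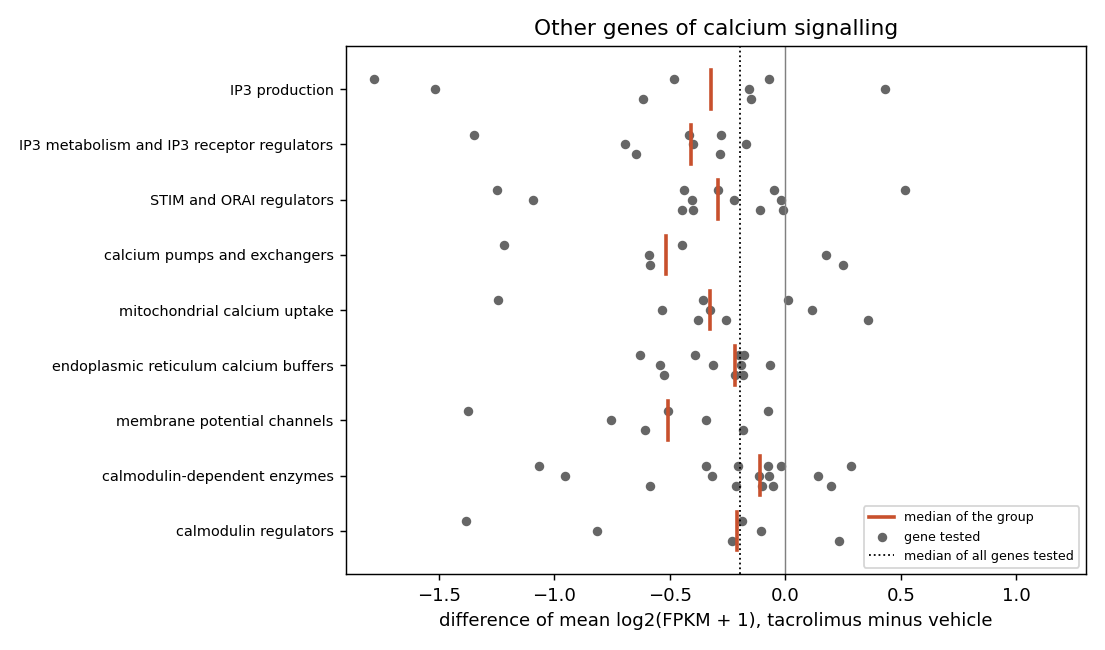
Each point is 1 tested gene of 9 of the pathway lists (the list of other family members is not drawn), at its difference of mean log2(FPKM + 1), tacrolimus minus vehicle, with the list median in red and the median of all genes dotted. List medians run from -0.52 for pumps and exchangers to -0.11 for calmodulin-dependent enzymes, against -0.19 for all genes.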

How the data were processed

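RNA of 8 libraries was analysed, 4 per group, grouped by the sample titles. Per the submitters' processing notes, HISAT2 2.1.0, RSEM 1.3.1, DESeq2 1.24.0 and the build GRCm38.p6 were used, with no role or order given. The deposited files hold 1 value per gene with no unit named. They were taken as FPKM that the authors had scaled to length and library size, since values of a library summed to 890182 to 926808 over the gene set, unlike TPM. Low values of genes with 1 transcript of 500 to 1500 bases fell on steps, and 85.5% to 87.3% of those used lay within 0.15 of a whole multiple. The steps gave an estimated 15740000 to 19100000 fragments per library, so 1 FPKM over 1 kilobase stands for about 15.7 to 19.1 fragments. Depth was thus similar between libraries. Whole counts could not be had for most genes, so a count model was not fitted.

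The members and gene lists were chosen with earlier results of these data known. Values were taken as log2(FPKM + 1), the test covered genes that reached 1 FPKM in 4 or more libraries, and limma 3.58.1 (trend) in R 4.3.3 compared the groups, with Benjamini-Hochberg adjustment over all 13032 genes. Ratios were tested by exact two-sided permutation over 70 assignments. From each pathway list the rule named up to 4 tested genes with the smallest unadjusted p, not all of which are reported here, and the 3 protein-coding genes with the highest correlation to each member. Simulated data for this comparison held 12804 genes. Of 100 genes shifted by a log2 value of 1 the test recovered 48, and of 100 shifted by 2 it recovered 92. It called 6 unchanged genes, and 1 gene in a run with no shift at all. The shifted genes were drawn only from those above a minimum mean level, which Itpr2 does not reach. Noise was drawn for each gene independently, with no shift shared within a library. These rates therefore do not cover low-level genes, and they may be too high for libraries that differ in composition. Symbols and coordinates are from GENCODE M21 (55141 of 55487 identifiers matched), promoter sequences from RefSeq. Alternatives were other pseudocounts, filters, scalings, variance and weight settings, the replicate block, and each library left out. Python 3.11.15 and matplotlib 3.10.9 drew the plots.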

Additional observations from a re-analysis of the deposited data

Results flagged for a closer look

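Within groups of 4, a library was marked where its gap to the nearest of the others took more of the group's range than Dixon's 95% critical value. The rule was applied to 104 groups (the 9 genes, the 5 ratios and the pathway genes named by the rule above, in each treatment group). Of these, 12 were marked, and 8 of the 12 were vehicle replicate 1. Chance marks about 1 in 20 where values are independent and normal. These groups share libraries, and the pathway genes were named by their p in these data, so that rate is no measure here.

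Vehicle replicate 1 had 70.8 FPKM of Calm3, where the other vehicle libraries had 46.7 to 49.7. Its log2 ratio of Orai1 to Orai2 was 1.98, where the others lay between 1.52 and 1.58. Its levels of 6 pathway genes also stood apart, with 75.2 FPKM of Lat (others 12.7 to 21.9), 15.2 of Camk4 (2.60 to 4.61), 8.61 of Atp2a3 (2.01 to 2.78) and 12.5 of Lrmp (3.51 to 4.98). It also had 29.1 FPKM of Esyt1 (10.8 to 12.7) and 158 of Saraf (111 to 118). This library had the highest T cell marker sum and the highest macrophage marker sum, and the part of either in these values was not tested.

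Vehicle replicate 2 had 771 FPKM of Calm2, where the other vehicle libraries had 514 to 548, and 7.00 of Orai2 (others 5.33 to 5.59). Tacrolimus replicate 3 had 2.41 FPKM of Orai2, where the other tacrolimus libraries had 4.41 to 4.67. Tacrolimus replicate 4 had 34.6 FPKM of Iqgap1 (others 25.0 to 26.6).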

How the results depend on the processing

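Of 217 recomputed values for the 9 genes and 5 ratios, 209 kept their direction, and none passed an adjusted p of 0.05. For the 9 genes, the other filters, robust variance, the replicate block and the exact permutation test leave the difference unchanged. The sign-flip test over same-numbered libraries does the same for the ratios. Direction in these settings was therefore fixed by design. For the 55 values of ratios and the 9 from the exact permutation test over all genes the design left a single result no way to pass, so their side of the threshold says nothing of stability. The 8 that turned belong to Calm2 and Itpr1. The Calm2 difference was 0.20 with median-of-ratios scaling, 0.21 with upper-quartile scaling and 0.021 with library weights, and ran from -0.077 to 0.12 with each library left out. The Itpr1 difference was 0.15 with either scaling and ran from -0.11 to 0.033 with a library left out. The Orai1 difference ran from -0.82 to -0.53 over its alternatives (adjusted p 0.0668 to 0.399), the Itpr2 difference from -1.05 to -0.62 (0.15 to 0.417), and the log2 ratio of Itpr1 to Itpr2 from 0.77 to 1.16 (0.0714 to 0.375). Genes lower at an unadjusted p under 0.05 numbered 801 with median-of-ratios and 778 with upper-quartile scaling, and 1308 to 2465 with a library left out. Genes higher numbered 675 and 723 with these scalings, 426 with no filter, and 134 to 285 with a library left out. Of all genes, 0 or 1 passed the adjusted threshold with a library left out, the 1 being without vehicle replicate 1.

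With the replicate number as a block, 121 genes passed, none of them among the 9 (adjusted p 0.0668 to 0.946). The numbers were not taken to pair the mice, since the sample titles state no pairing. Deviations of same-numbered libraries correlated at 0.21, 0.28, -0.02 and -0.02, and those of the other pairs at -0.32 to 0.15. The values 0.21 and 0.28 thus lay above all other pairs, so these correlations do not settle whether the numbers pair the mice. The sign-flip test over same-numbered libraries left every ratio at an adjusted p of 0.375, and since 4 pairs cannot give a p below 0.125 it could pass none. Low-level genes such as Itpr3, near 1 FPKM, rest on few fragments per kilobase, and their differences on this scale are understated.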
